A study of Mus musculus with 36 samples.

Results

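The genes described here are 44 interferon-stimulated genes, chosen by name and found once each among the 53421 genes of the count table and the 52416 genes of the TPM table. They were measured by RNA-seq in a conditionally immortalised mouse line of fibroblast-like chondrocytes, in cells transfected with a non-targeting siRNA pool (NT) or with an siRNA pool against *Ift88* (IFT88siRNA), which encodes a ciliary transport protein. Each group was sampled in medium only (0 h) and at 5 times after addition of IL-1β at 10 ng/ml, namely 1, 2, 4, 8 and 24 h, which gives 36 libraries from 12 conditions of 3 replicates. The sample labels give the siRNA at 50 nM. The libraries all came from a single cell line. It was expanded with interferon-γ to keep it dividing and then cultured without it before the experiments, so that every group, controls included, had met an inducer of these genes beforehand. There was a single 0 h control per siRNA group, and time in culture and IL-1β cannot be told apart. Every library came from transfected cells, and no untransfected cells were among the samples. With a single siRNA pool per group, loss of *Ift88* and other effects of its pool cannot be told apart. Nothing in the labels says that replicates came from separate cultures on separate days, and p-values then measure the spread between these samples, which may be technical.

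Interferons are secreted proteins that signal through paired receptors to JAK kinases and STAT transcription factors. Type I interferon leads to a complex containing STAT2 and IRF9 that binds the interferon-stimulated response element (ISRE), whereas interferon-γ acts through the gamma-activated site (GAS). The genes switched on in this way encode sensors of viral RNA, proteins that block viral replication, GTPases that act on pathogen-containing vacuoles, modifiers of the ISG15 and ADP-ribosylation systems, and chemokines that attract T cells. IL-1β itself signals through NF-κB and MAP kinases, and NF-κB binds the κB motif.

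The RefSeq promoter windows (GRCm38.p6) held 34 of the 44 genes. The 250 bases before each start were searched on both strands for a pair of GAAA separated by any 2 bases (the ISRE core), for TTCNNNGAA (the GAS core) and for the κB consensus. The ISRE core was in 16 of the 34 genes with a window (47.1%), in 3.46% of all 27025 genes with a window and in 2.98% of all 32851 windows. The GAS core was in 9 of 34 (26.5%), in 8.13% of genes and in 7.02% of windows, and the κB consensus was in 5 of 34 (14.7%), in 4.46% of genes and in 3.90% of windows. The κB consensus was found in 4 of the 10 genes with a window that were higher at 1 h in NT, namely *Irf1*, *Cxcl10*, *Gbp5* and *Oasl1*. It was in 0 of the 8 that were lower and in 1 of the 16 not called there. For the ISRE core the counts were 5 of 10, 3 of 8 and 8 of 16. For the GAS core they were 3 of 10, 3 of 8 and 3 of 16. None of the 3 motifs was found in 5 of the 8 lower genes (*Irf7*, *Oasl2*, *Ifi44*, *Xaf1* and *Dtx3l*) and in 2 of the 10 higher ones (*Ifi47* and *Cxcl9*). These counts are descriptions of letters in a short window, and no match says only that the letters are absent from it. The 4 early genes with a κB match and 2 early-falling genes with the other motifs, *Igtp* and *Oas1a*, are shown as examples of the matches. They were chosen after their values were seen, and motif matches are in capitals, with those of the ISRE in *Oas1a* overlapping.
Irf1: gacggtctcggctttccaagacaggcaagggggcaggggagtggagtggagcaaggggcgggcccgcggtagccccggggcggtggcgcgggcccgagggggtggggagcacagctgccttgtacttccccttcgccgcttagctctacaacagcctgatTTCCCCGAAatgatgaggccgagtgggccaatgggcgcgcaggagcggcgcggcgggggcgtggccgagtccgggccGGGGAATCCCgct
Cxcl10: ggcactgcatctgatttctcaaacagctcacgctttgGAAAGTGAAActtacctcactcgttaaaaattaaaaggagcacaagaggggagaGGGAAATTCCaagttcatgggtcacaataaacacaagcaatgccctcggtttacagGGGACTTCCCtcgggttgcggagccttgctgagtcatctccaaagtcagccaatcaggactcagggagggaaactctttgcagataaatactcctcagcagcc
Gbp5: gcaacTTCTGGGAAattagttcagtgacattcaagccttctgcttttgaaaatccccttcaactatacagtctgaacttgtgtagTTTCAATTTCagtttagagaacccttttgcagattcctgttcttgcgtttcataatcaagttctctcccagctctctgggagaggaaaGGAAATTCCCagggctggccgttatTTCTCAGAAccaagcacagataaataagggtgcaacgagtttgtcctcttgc
Oasl1: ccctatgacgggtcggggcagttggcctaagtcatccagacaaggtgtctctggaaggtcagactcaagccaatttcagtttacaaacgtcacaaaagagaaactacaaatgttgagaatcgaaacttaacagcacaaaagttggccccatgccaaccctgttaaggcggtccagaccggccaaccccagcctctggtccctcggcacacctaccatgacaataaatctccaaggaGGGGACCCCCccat
Igtp: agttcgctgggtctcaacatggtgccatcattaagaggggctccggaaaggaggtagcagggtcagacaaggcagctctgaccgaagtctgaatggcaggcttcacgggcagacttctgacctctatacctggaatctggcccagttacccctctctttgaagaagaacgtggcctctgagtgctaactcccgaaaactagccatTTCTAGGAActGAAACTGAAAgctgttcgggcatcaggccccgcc
Oas1a: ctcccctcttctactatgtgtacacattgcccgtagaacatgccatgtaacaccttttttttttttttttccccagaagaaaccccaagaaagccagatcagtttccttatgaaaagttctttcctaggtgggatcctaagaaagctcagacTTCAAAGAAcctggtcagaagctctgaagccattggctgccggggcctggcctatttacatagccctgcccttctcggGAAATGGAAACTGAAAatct
The *Irf1* window is chr11:53769764-53770013 on the plus strand, and a further RefSeq window of this gene held no match. The others are chr5:92348890-92349139 (minus strand, *Cxcl10*), chr3:142496684-142496933 (plus, *Gbp5*), chr5:114922990-114923239 (plus, *Oasl1*), chr11:58199306-58199555 (plus, *Igtp*) and chr5:120907526-120907775 (minus, *Oas1a*).

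The libraries held between 19337022 and 38304127 counts on genes, and the precision from this depth covers counting error only, as the reads carried no molecular barcode. *Ift88* was lower in IFT88siRNA at every time point, by log2 changes between −1.47 and −2.12. The 8 fibroblast markers had medians from 1.56 TPM (*Lum*) to 779 TPM (*Col1a2*), and the 8 chondrocyte markers from 0 TPM (*Col9a1*) to 16.1 TPM (*Comp*), with *Sox9* at 11.6, *Hapln1* at 6.23, *Col2a1* at 3.15 and *Acan* at 0.0444 TPM. The 8 markers of macrophages and other leukocytes summed to between 7.18 and 15.1 TPM, mostly from *Cd68* and *Lyz2*, with the highest sums at 0 h in NT (11.1 to 15.1) and 9.80 to 11.1 at 4 h in NT. *Ptprc* and *Adgre1* had medians of 0.0378 and 0 TPM, and *Cd3e* had 0 counts in all libraries. In bulk RNA, fewer expressing cells and less RNA per cell cannot be told apart.

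IL-1β was followed by a rise of all 44 genes at 4 h in NT, after an early time point at which 28 had negative and 16 positive changes, with as many called lower as higher. Genes past an adjusted p-value of 0.05 with more than a 1.5-fold change were called. At 1 h, 11 genes were called higher and 11 lower, against 18.7% of all 16048 genes tested called in either direction (9.22% higher and 9.45% lower). At 2 h, 21 were higher and 1 lower (27.3% of all genes called, 13.0% higher and 14.3% lower). At 4 h, 44 were higher (28.7%, 16.3% higher and 12.4% lower), and at 8 h 44 were higher (19.7%, 11.8% higher and 7.87% lower). At 24 h, 17 were higher and 0 lower (16.3%, 6.61% higher and 9.71% lower). The median log2 change of the 44 genes was −0.20, 0.45, 2.71, 1.65 and 0.49 at these times, while that of all genes tested stayed between −0.02 and −0.01. The 5 comparisons share the 0 h libraries. The genes took 0.490% ± 0.0120 of all counts at 0 h and 2.65% ± 0.0435 at 4 h in NT (SD, n = 3). The heat map of changes from 0 h shows the order of the genes at 1 h giving way to a common rise.

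**Figure D1:**
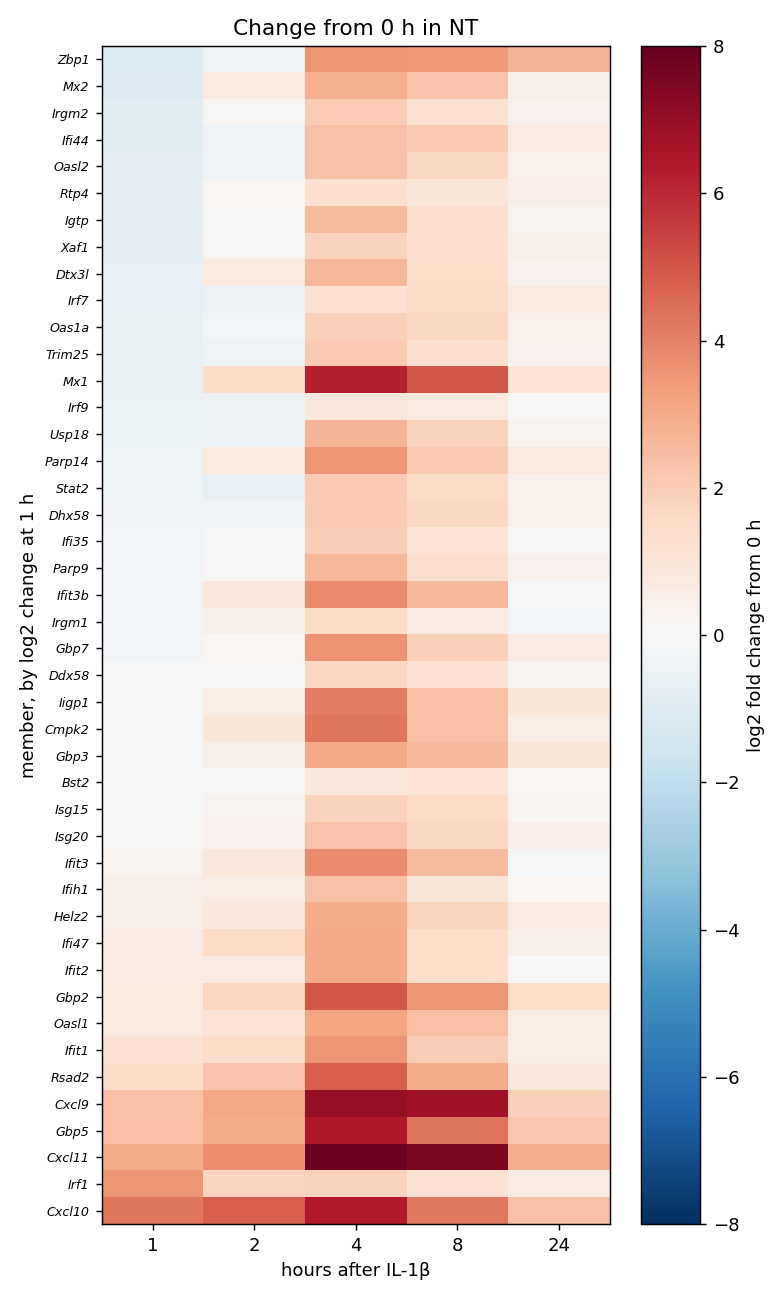
Log2 fold change from 0 h in NT for the 44 genes (rows, ordered by the change at 1 h) at each time after IL-1β (columns). Blue cells at 1 h turn red in every row by 4 h, and *Cxcl11* reached the largest change, 7.88, from low counts at 0 h.

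Among the regulators, *Irf1*, the transcription factor directly downstream of both NF-κB and interferon-γ, was the only gene of the 44 with its highest mean at 1 h. Its CPM in NT was 50.8, 56.8 and 53.0 at 0 h and 627, 597 and 642 at 1 h. It then stood at 189, 165 and 197 at 2 h and at 81.4, 86.7 and 87.5 at 24 h. The change at 1 h was 3.53 ± 0.0700 (log2, SE). *Irf7*, which amplifies type I interferon production, first fell, from 283, 266 and 249 at 0 h to 168, 162 and 176 at 1 h (−0.66 ± 0.0554). It rose to 779, 746 and 805 at 8 h, where it had its highest mean. *Stat2*, a subunit of the ISRE-binding complex, had 160, 148 and 157 CPM at 0 h, 110, 67.1 and 122 at 2 h and 602, 663 and 681 at 4 h. It was the gene called lower at 2 h (−0.64), and rose by 2.0964 ± 0.125 at 4 h. *Irf9*, its partner, had the smallest change of the 44 at 4 h, 0.82 ± 0.0718.

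The 4 sensors of RNA and Z-nucleic acid all rose at 4 h, with a median log2 change of 2.22. *Zbp1*, which senses Z-form nucleic acid, had 22.9, 22.3 and 21.0 CPM at 0 h and 9.52, 11.5 and 10.7 at 1 h. It reached 246, 249 and 248 at 4 h, where the libraries overlapped with the 236, 239 and 253 at 8 h, and still stood at 153, 146 and 146 at 24 h. No library at 24 h was near the 0 h range, and the log2 change there was 2.71 ± 0.0634, against 3.52 ± 0.0640 at 4 h. *Ifih1*, which encodes the RNA sensor MDA5, had 132, 134 and 128 CPM at 0 h and 669, 643 and 636 at 4 h, and 151, 148 and 150 at 24 h. *Ddx58* (RIG-I) and *Dhx58* (LGP2) changed by 1.73 and 2.11 at 4 h.

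Of the 17 antiviral effectors, 4 were called higher and 6 lower at 1 h, 17 higher at 4 h and 17 higher at 8 h, with medians of −0.22, 2.87 and 1.96. *Mx1*, a GTPase that blocks influenza viruses, had 5.40, 5.44 and 4.10 CPM at 0 h, 15.4, 6.40 and 20.4 at 2 h and 345, 332 and 363 at 4 h. Replicate 2 was the lowest NT library at 2 h, also for *Stat2* and *Rsad2*. In IFT88siRNA replicate 2 was also the lowest for *Mx1* (7.36, 5.65 and 12.5 CPM) and *Rsad2* (114.5, 104.6 and 156.5). For *Stat2* it was not (73.8, 75.6 and 101.8). Replicate 3 was the highest at 2 h for these genes in both groups. The change of *Mx1* at 4 h was 6.14 ± 0.194. *Rsad2* (viperin), which makes a chain-terminating nucleotide, rose already at 1 h, from 30.4, 30.2 and 27.9 to 78.5, 85.9 and 85.0, and reached 779, 773 and 804 at 4 h (4.76 ± 0.132). *Ifit1* and *Ifit2*, which bind viral RNA, were also higher at 1 h (1.18 and 0.68), whereas *Oasl2*, *Oas1a*, *Mx2*, *Ifi44*, *Xaf1* and *Rtp4* were lower (−0.61 to −1.05). *Bst2* (tetherin) was the most abundant of the 44 per length at 0 h, at 1630 TPM, and together with *Irf7* had its highest mean CPM at 8 h. Of the others, 41 had their highest mean CPM at 4 h and *Irf1* at 1 h. In TPM, *Zbp1* and *Irf9* were also highest at 8 h, and 39 genes at 4 h.

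All 7 genes of the ISG15, ubiquitin and ADP-ribosylation group rose at 4 h (median 2.68), and *Dtx3l*, a ubiquitin ligase, was the member lower at 1 h (−0.68). *Parp14*, an ADP-ribosyltransferase, had 116, 115 and 110 CPM at 0 h, 83.2, 89.6 and 86.6 at 1 h and 1264, 1325 and 1339 at 4 h. Its change at 4 h was 3.55 ± 0.0878. *Helz2*, a helicase, had 162, 150 and 138 CPM at 0 h and 1037, 1171 and 1177 at 4 h (2.94 ± 0.0867). *Isg15* itself, the ubiquitin-like modifier, was second to *Bst2* at 0 h with 614 TPM and changed by 1.85 at 4 h, and *Usp18*, which removes it, changed by 2.74.

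Among the 9 interferon-inducible GTPases, *Gbp2*, *Gbp5* and *Ifi47* were higher at 1 h and *Igtp* and *Irgm2* lower. *Gbp5* had 2.64, 3.19 and 2.65 CPM at 0 h, 15.0, 14.5 and 15.7 at 1 h and 238, 228 and 249 at 4 h. The change was 2.40 ± 0.123 at 1 h and 6.42 ± 0.0958 at 4 h. *Gbp2* had 41.8, 42.1 and 41.7 CPM at 0 h, 69.4, 71.1 and 74.7 at 1 h and 1321, 1240 and 1231 at 4 h (4.94 ± 0.0632). *Igtp* and *Irgm2* share 162 exonic bases on the same strand in the GENCODE annotation, so their counts are less certain.

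The 3 chemokine genes are those of ligands of CXCR3, a chemokine receptor on T cells, and were higher at every time point. *Cxcl10* had 45.4, 44.5 and 38.9 CPM at 0 h, 798, 814 and 867 at 1 h, 3436, 3377 and 3449 at 4 h and 236, 214 and 212 at 24 h. Per length it stood above *Bst2* at 1 h (1596 against 1351 TPM) and was the most abundant of the 44 at 4 h with 6340 TPM, and *Bst2* was above it again at 8 h (3147 against 1615 TPM). *Cxcl11* had 0.419, 0.328 and 0.397 CPM at 0 h, from 27 counts in 3 libraries, and 97.2, 76.7 and 94.1 at 4 h. Its change of 7.88 ± 0.202 was the largest. *Cxcl9* had 0.0838, 0.205 and 0.0883 CPM at 0 h, from 9 counts in 3 libraries, and 18.1, 14.5 and 15.4 at 4 h (6.94 ± 0.247). *Cxcl11* shares 41.7% of its exonic bases with a gene on the opposite strand, and reads there cannot be assigned without strand. The GENCODE annotation types *Cxcl11*, like *Mx2*, as a polymorphic pseudogene and not as protein-coding. The 3 chemokine genes lie together at chr5:92321347-92365485 (GRCm38), as do *Gbp2*, *Gbp3*, *Gbp5* and *Gbp7* at chr3:142493978-142638008 and the 4 *Ifit* genes at chr19:34550694-34650009.

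**Figure D2:**
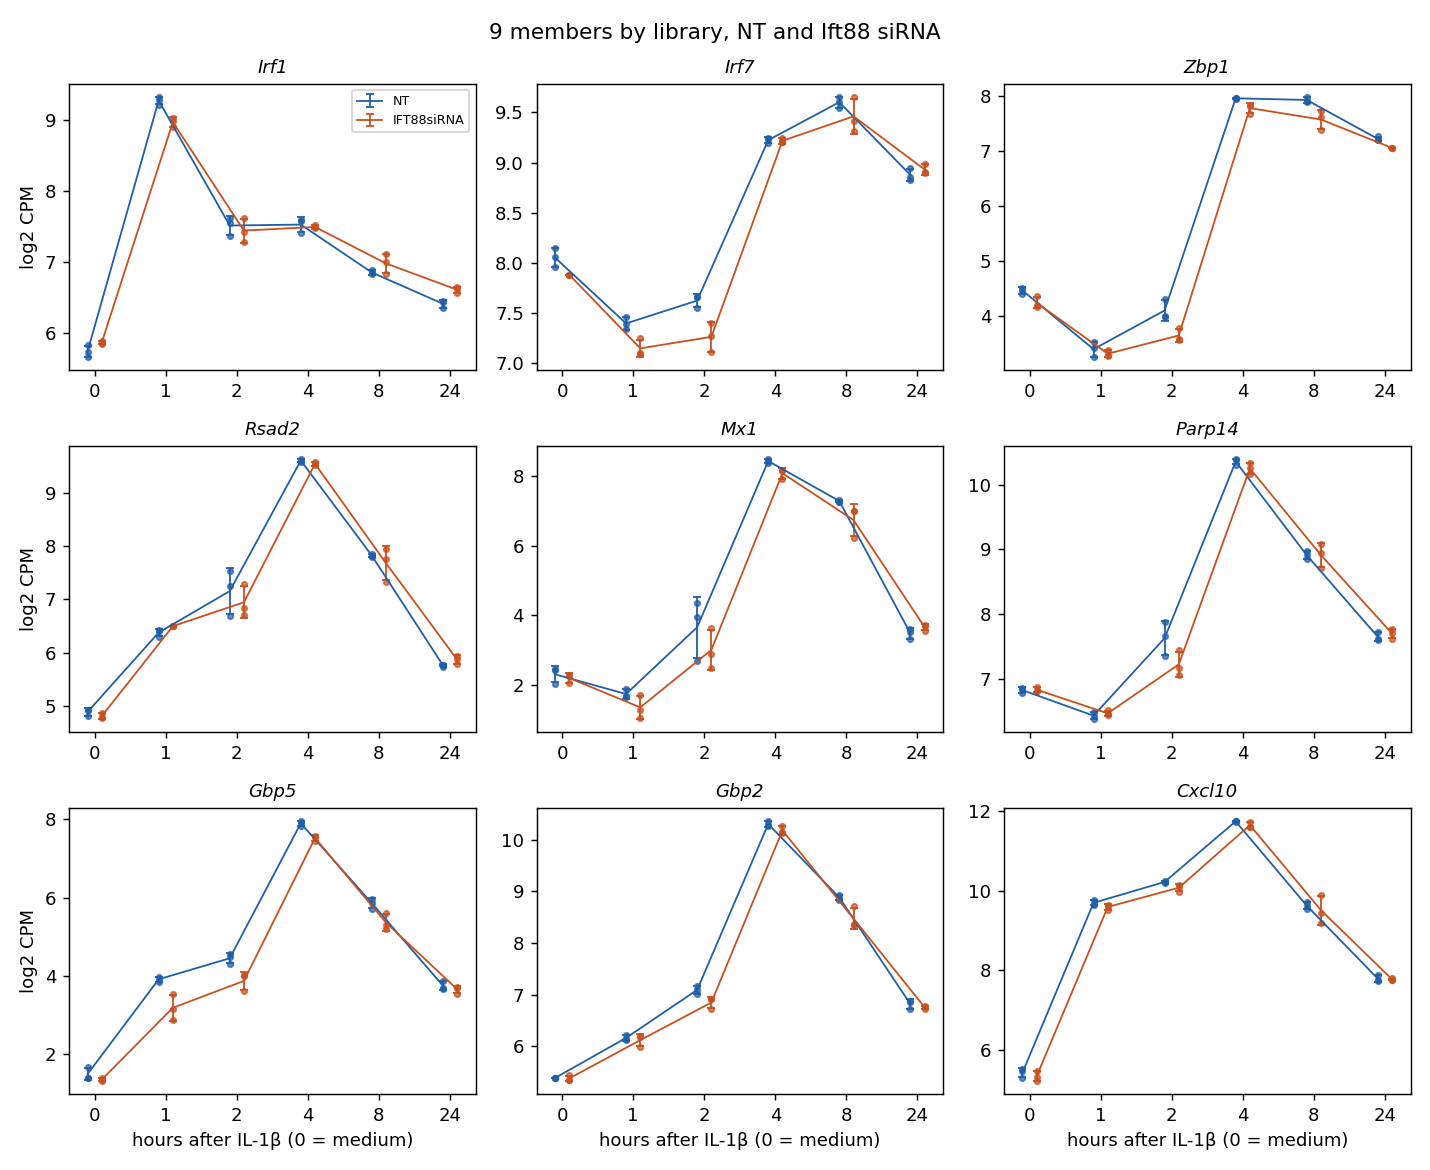
Log2 CPM of 9 of the genes at each time after IL-1β (0 is medium only) in NT (blue) and IFT88siRNA (orange), with points for the 3 libraries, lines through the means and bars for the SD. *Irf1* is highest at 1 h, *Irf7* and *Zbp1* dip at 1 h, and the highest mean of each gene is at the same time in both groups.

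The other genes of the pathway were described from fixed lists. Of 11 interferon ligands, *Ifnb1*, which encodes interferon-β, was the only gene with enough counts to be tested. Its CPM in NT was 0.168, 0.0819 and 0.0441 at 0 h, from 7 counts, 3.996, 3.84 and 5.09 at 1 h and 0.827, 0.410 and 1.04 at 4 h. The change at 1 h was 5.37 ± 0.393 with an adjusted p-value of 3.925e-11. *Ifng* had 0 counts in all 36 libraries, and *Ifna4* had 63 counts in all. Of the receptor, JAK-STAT and feedback genes, 11 of 15 tested were higher and 1 lower at 4 h. Of the sensing adaptors, kinases and other IRFs, 9 of 15 were higher at 4 h, with *Irf5* at 4.46 ± 0.121 and *Tlr3*, a receptor for double-stranded RNA, at 3.61 ± 0.0765. Of 52 other interferon-response genes, 4 were higher and 9 lower at 1 h, and 51 were higher at 4 h, where *Ifi27* was the exception (0.11 ± 0.0495). Of all genes tested in NT, 9.22% were called higher and 9.45% lower at 1 h. At 4 h, 16.3% were called higher and 12.4% lower.

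In IFT88siRNA all 44 genes rose at 4 h as well, in a fit on those 18 libraries alone. At 1 h, 10 were called higher and 13 lower, and of all 16129 genes tested 15.1% were called, 6.82% higher and 8.25% lower. At 2 h, 14 were higher and 4 lower (25.6%, 12.4% higher and 13.2% lower). At 4 h, 44 were higher (29.3%, 16.0% and 13.3%), and at 8 h 44 (17.6%, 10.5% and 7.11%). At 24 h, 26 were higher and 0 lower (14.2%, 6.36% and 7.87%). The medians were −0.27, 0.22, 2.73, 1.74 and 0.63. Each of the 44 genes had its highest mean at the same time point as in NT. *Cxcl10* had 43.97, 36.99 and 40.03 CPM at 0 h and 3109, 3397 and 3108 at 4 h (6.32 ± 0.138). The genes took 2.47% ± 0.0380 of all counts at 4 h (SD, n = 3). At 8 h the IFT88siRNA libraries spread from 1.25% to 1.54%, with replicate 2 the lowest.

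When IFT88siRNA was compared with NT at each time point, few genes passed both thresholds, and those that did were lower. At 0 h, 0 of 43 genes tested were called by edgeR (2.23% of all genes were, 1.56% as lower), with 21 at an unadjusted p-value under 0.05 (32.1% of all genes were) and *Cxcl9* too low to test. At 1 h, *Gbp5* and *Cxcl11* were lower (2.66% of all genes called, 2.47% lower), at 2 h *Gbp5* (0.496%, 0.462% lower), and at 8 h *Cxcl9* and *Cxcl11* (0.692%, 0.613% lower). At 4 h, 0 of 44 were called (0.432%, 0.399% lower), with 24 at an unadjusted p-value under 0.05 (17.9% of all genes), and at 24 h 0 of 44 (1.15%, 0.598% lower), with 11, or 25% of the 44 against 22.2% of all genes. Without the fold-change threshold, 13, 23, 5, 9, 6 and 6 genes had an adjusted p-value under 0.05 at 0, 1, 2, 4, 8 and 24 h, and the percentages of all genes were 19.5, 19, 2.76, 3.85, 4.25 and 8.66. With 3 against 3, the smallest p-value an exact permutation test allows is 0.1.

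*Gbp5* had 7.33, 8.90 and 11.6 CPM in IFT88siRNA at 1 h, all below the 15.0, 14.5 and 15.7 of NT, and differed by −0.74 ± 0.120. At 2 h it had 16.2, 12.2 and 15.8 against 22.4, 19.8 and 23.5 (−0.59 ± 0.111). The groups did not overlap at either time, but the call at 2 h was lost without any of 4 of the 6 libraries (NT replicates 1 and 3, log2 changes of −0.55 and −0.53, IFT88siRNA replicates 1 and 2, −0.65 and −0.47), and with no filter on low counts or all 36 libraries in 1 model (−0.58 in both). *Cxcl11* had 1.78, 1.93 and 2.26 CPM at 1 h against 3.31, 2.27 and 3.43 (−0.62 ± 0.193), where the nearest libraries of the groups almost met. At 8 h it had 47.7, 27.0 and 39.4 against 69.6, 57.8 and 71.4 (−0.83 ± 0.158). The *Cxcl11* call was lost at 1 h without NT replicate 1 or 3 or IFT88siRNA replicate 1 or 2 (−0.54, −0.51, −0.54 and −0.60) and by DESeq2 (−0.63) or all 36 libraries in 1 model (−0.61), and at 8 h without NT replicate 1 or 3 (−0.79 and −0.76). *Cxcl9* had 10.1, 8.06 and 8.68 CPM at 8 h against 13.0, 15.3 and 13.6 (−0.67 ± 0.105). In a limma test of log2(TPM + 1), none of these differences was called, with log2 changes of −0.64 and −0.54 for *Gbp5* at 1 h and 2 h, −0.50 and −0.84 for *Cxcl11* at 1 h and 8 h and −0.47 for *Cxcl9* at 8 h (adjusted p-values 0.0535, 0.169, 0.129, 0.139 and 0.115).

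**Figure D3:**
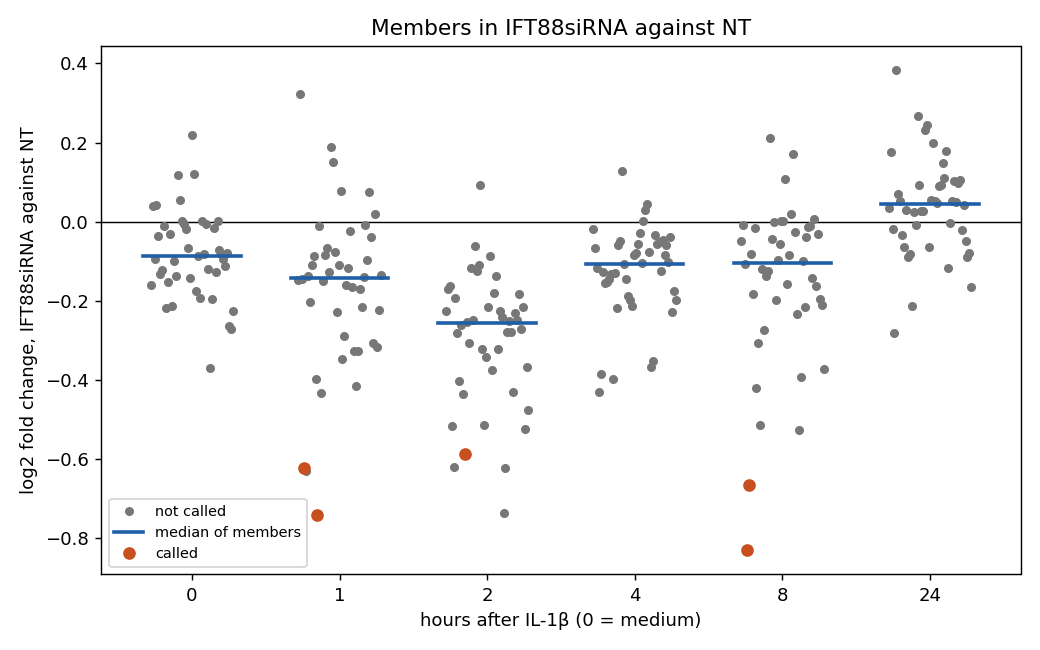
Log2 fold change of IFT88siRNA against NT for each gene tested (points) at each time point, with the median as a blue bar and called genes in orange. The medians lie between −0.26 and −0.09 up to 8 h and at 0.04 at 24 h, and all called genes are below 0.

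Up to 8 h, most of the 44 genes had lower values in IFT88siRNA than in NT, mostly by less than 1.5-fold. The change was negative for 34 of 43 genes at 0 h, 38 of 44 at 1 h, 43 at 2 h, 40 at 4 h, 37 at 8 h and 16 at 24 h, with medians of −0.09, −0.14, −0.26, −0.11, −0.10 and 0.04, while the medians of all genes tested were 0.00 at each time. The change from 0 h was then compared between the groups (IFT88siRNA minus NT, all 36 libraries in 1 model). This difference was negative for 28 of the 44 genes at 1 h (median −0.05) and for 42 at 2 h (−0.19). It was negative for 22 and positive for 22 both at 4 h (−0.0056) and at 8 h (−0.0041). At 24 h it was positive for 40 (0.13). The lower values at 4 h and 8 h thus came without a one-sided difference in the change from 0 h. Genes measured in the same libraries are not independent, and these counts carry no test. All 3 IFT88siRNA libraries were below all 3 NT libraries for 21 of 43 genes at 0 h, where 17.0% of all genes were, for 17 of 44 at 1 h (13.0%), 14 at 2 h (9.37%), 17 at 4 h (9.01%), 12 at 8 h (10.3%) and 3 at 24 h (15.2%). They were above for 2 of 43 genes at 0 h (18.3%), *Irf1* and *Iigp1*. At 1 h they were above for 5 (25.5%), which were *Ifit1*, *Ifit2*, *Rsad2*, *Cmpk2* and *Iigp1*. The counts above were 1 at 2 h (11.2%), 2 at 4 h (13.9%), 2 at 8 h (14.3%) and 11 at 24 h (12.8%). *Irf7*, *Usp18* and *Gbp3* were among those below at 0 h and at 1 h. *Irf1* had 509, 478 and 524 CPM at 1 h in IFT88siRNA against 627, 597 and 642 (−0.35 ± 0.0428, adjusted p-value 6.06e-05), under the fold-change threshold.

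Whether the change from 0 h itself differed between the siRNA groups was tested over the 5 time points together in all 36 libraries. By edgeR, 0 of the 44 genes were called, where 1.20% of all genes were, with 24 at an unadjusted p-value under 0.05 (16.8% of all genes) and 14 with an adjusted p-value under 0.05 by DESeq2 (9.30% of all genes). Without the fold-change threshold 8 passed (5.53% of all genes did), *Irf1*, *Gbp3*, *Irgm1*, *Irf7*, *Ifi47*, *Isg20*, *Ifit3* and *Ifit2*, and *Irf1* had the smallest adjusted p-value, 0.00241. Its rise at 1 h was smaller in IFT88siRNA by 0.46 on the log2 scale (3.07 ± 0.0753 against 3.53 ± 0.0700). Part of this is the higher start of *Irf1* at 0 h in IFT88siRNA, 57.7, 59.4 and 58.0 CPM against 50.8, 56.8 and 53.0 in NT.

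Outside the 44 genes, *Ifnb1* had 2.43, 2.73 and 3.39 CPM at 1 h in IFT88siRNA, all below NT (−0.64 ± 0.163, adjusted p-value 0.0126). The call was lost without NT replicate 3 (−0.50) or IFT88siRNA replicate 1 (−0.53). At 0 h in IFT88siRNA it had 1 count in 3 libraries, so no fold change from 0 h is given there. *Irf5* had 7.77, 7.87 and 8.70 CPM against 13.9, 10.1 and 13.4 at 1 h (−0.65 ± 0.117, adjusted p-value 0.00116), a call lost without NT replicate 1 (−0.56).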

How the data were processed

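RNA-seq of 36 libraries was analysed. The authors aligned the reads to GRCm38 with HISAT2 2.1.0 and deposited counts per gene from featureCounts (Subread 1.6.3), without normalization, and TPM values per gene from Salmon 0.9.1. Counting used default settings, which ignore strand. The methods give another siRNA concentration than the labels, and the labels describe 3 sequencing lanes without assigning libraries to them. Counts were tested in R 4.3.3 with edgeR 4.0.16 (TMM, filterByExpr, two-sided quasi-likelihood F-tests, Benjamini-Hochberg adjustment over all genes tested). The SE is the log2 change divided by the square root of F. Fits used 18 libraries per siRNA group over time, 6 per time point between groups and 36 for the difference in response. Genes described library by library were the 2 of each of 6 role groups with the largest change from 0 h in NT, and those called between siRNA groups; others are named as examples. A gene of the fixed lists is not reported here. The members and lists were chosen with earlier results of these data known. DESeq2 1.42.0 and limma 3.58.1 on log2(TPM + 1) were alternatives. Of 40 RefSeq promoter windows, 33 matched a GENCODE transcript just after the start. The steps were tested on simulated data.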

Additional observations from a re-analysis of the deposited data

How the results depend on the processing

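Calls of all 44 genes at 4 h and 8 h in both siRNA groups held under every alternative run, and no result reversed. Without a fold-change threshold, 36, 36 and 39 genes were called at 1 h, 2 h and 24 h in NT (51.7%, 60.9% and 44.9% of all genes were), 38, 34 and 40 in IFT88siRNA (43.2%, 57.4% and 39.8%), and 13, 23, 5, 9, 6 and 6 between the siRNA groups at the 6 time points in order, with 8 for the difference in response. Limma on log2(TPM + 1), with or without a filter, called 17 at 24 h in IFT88siRNA. Between the siRNA groups, limma called 0 at 1, 2 and 8 h, also with a pseudocount of 0.1. At 1 h, DESeq2 and all 36 libraries in 1 model each called 1. With no filter on low counts, 2 were called at 2 h and 2 for the difference in response. Leaving out 1 library gave 1 to 3 at 1 h, 0 to 5 at 2 h, 1 to 3 at 8 h and 0 to 1 for the difference in response, where the 5 at 2 h came without NT replicate 2. The cause was not tested. Replicate numbers were not taken to pair the libraries (median correlation of deviations 0.00782 over 198 same-numbered pairs, 29 over 0.1, and 19 of 36 libraries closest to their own number). Across all genes, at no time point were all 3 same-numbered correlations of NT and IFT88siRNA over 0.1 (−0.0589, 0.0555 and 0.223 at 2 h). Over the 44 genes alone, all 3 were over 0.1 at 24 h (0.722, 0.352 and 0.621). At 2 h they were 0.0221, 0.644 and 0.893. With the replicate block, 3 were called at 2 h, and no other count moved by over 1.5 times. *Cxcl9*, *Cxcl11* and *Ifnb1* are limited by low counts at 0 h.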
